A study of Homo sapiens with 9 samples.

Results

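Long intergenic noncoding RNAs (lincRNAs) are transcripts from between protein-coding genes that do not encode a protein. The ones described here were the rows of the count table that GENCODE release 29 types as lincRNA and whose level, in CPM (read counts divided by the library size and adjusted by TMM, the trimmed mean of M values), averaged at least 1 over the 9 libraries. They were selected on that mean level alone and numbered 249 of the 1687 lincRNA rows (14.8%) among 26186 rows in all. Their level is a description and not a finding.

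LincRNAs are transcribed by RNA polymerase II and are mostly spliced and polyadenylated like messenger RNAs, but they are usually present at lower levels and are more restricted to particular cell types. Some act where they are made, on chromatin or on a neighbouring gene, some build nuclear bodies or bind proteins elsewhere, and others are chiefly the precursors of microRNAs or small nucleolar RNAs carried in their introns or exons. CAF-1, the chaperone that loads histones onto newly copied DNA, contributes to keeping inactive genes packaged.

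The libraries were polyadenylated RNA of MCF10A, an established and nontumorigenic line of human breast epithelial cells. A first lentiviral hairpin against CHAF1B, a CAF-1 subunit (shCHAF1B-1), a second hairpin against it (shCHAF1B-2) and a control hairpin that targets green fluorescent protein (shGFP) gave 3 libraries each. All cells, controls included, had been transduced, put under 2 μg/mL puromycin 24 hours later and harvested on day 3. The labels name no clones and no separate cultures, so p-values measure the spread between these libraries, which may be technical.

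Totals ran from 24339914 to 31819468 counts per library, so that 3 counts were worth 0.0943 to 0.123 CPM before TMM scaling. CHAF1B itself fell to between 2.56 and 3.88 CPM in the knockdown libraries, against 35.2 to 41.0 CPM in shGFP libraries (log2 fold change -3.50 and -3.55, adjusted p = 1.4e-10 and 1.6e-10). Here and throughout, a pair of values gives shCHAF1B-1 and then shCHAF1B-2, each over shGFP, and p-values come from edgeR's quasi-likelihood fit, adjusted after Benjamini and Hochberg over 16235 genes. The 12 epithelial markers summed to 12432 to 13753 CPM in knockdown libraries and 13915 to 14984 CPM in shGFP libraries, but single markers differed more. KRT5 had 3867 to 4274 CPM in knockdown libraries and 7058 to 7628 CPM in shGFP libraries, and KRT17 had 360 to 440 CPM in knockdown libraries and 792 to 952 CPM in shGFP libraries, while LAMB3 had 2535 to 2933 CPM in knockdown libraries and 959 to 1047 CPM in shGFP libraries. One library stood apart: the 14 measured of 15 B lymphocyte markers summed to 270 CPM in shCHAF1B-1 replicate 3, with MS4A1 at 105 CPM. In the other 8 libraries they summed to between 2.76 and 5.45 CPM. CR2 alone among them was not raised in shCHAF1B-1 replicate 3, with 0.354 CPM in that library and 0.416 to 1.68 CPM in the other 8. On the second principal component (9.3% of the variance) that library lay at -29.3 and shCHAF1B-2 replicate 3 at 26.3, with the others between -5.3 and 6. The 2 measured of 10 T lymphocyte markers summed to 3.34 CPM in shCHAF1B-1 replicate 3 and to at most 0.203 CPM elsewhere. Of that 3.34 CPM, LCK gave 3.27 CPM, and CD247 stood at only 0.0787 CPM. The 4 measured of 10 myeloid markers summed to 41.2 to 45.5 CPM in knockdown libraries and 29 to 32.8 CPM in shGFP libraries, and the other 6 are not analysed here. Most of that difference lay in CD14, with 22.3 to 26.8 CPM in knockdown libraries and 12.5 to 14.6 CPM in shGFP libraries. CSF1R had 16.5 to 19.4 CPM in knockdown libraries and 15.8 to 17.5 CPM in shGFP libraries. The 5 measured of 8 fibroblast markers summed to 53.4 to 56.6 CPM in knockdown libraries and 34.3 to 37.1 CPM in shGFP libraries, and the other 3 are not analysed here. FAP and COL1A1 made up nearly all of these sums. LUM, PDGFRA and PDGFRB had at most 0.358 CPM in any library, and LUM was lower in knockdown than in shGFP libraries. The sums thus rest on few markers. The part of such cell types in the results below was not tested. In bulk RNA, fewer cells of a type and less RNA per cell cannot be told apart.

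The 249 lincRNAs were a low-level class. Their mean level had a median of 2.61 CPM and ran from 1.01 to 316 CPM, while protein-coding rows of at least 1 CPM had a median of 36.4 CPM. Per kilobase of exon the median was 1.33 RPKM for lincRNAs and 6.79 RPKM for those protein-coding genes. MALAT1, NEAT1 and NORAD alone held 34.7% of the summed CPM of the 249. That sum was 2734 ± 184 CPM for shCHAF1B-1, 2570 ± 322 CPM for shCHAF1B-2 and 2380 ± 191 CPM for shGFP (SD, n = 3 each), and the libraries of the 3 groups overlapped. They came from 23 chromosomes, with the most, 23, on chromosome 1. The median exon length was 2509 bases. The annotation gave 70 a single exon block, and 115 carried only a clone-type name. Exons of 81 overlapped those of another gene, 27 on the same strand and 66 on the other, so that part of their reads cannot be assigned with certainty in a library without strand information.

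Just inside the threshold lay AL391704.1 at 1.010, AC084018.1 at 1.014 and AC112721.2 at 1.015 CPM, and just outside it LINC-ROR at 0.996, AC005332.5 at 0.998 and LINC01011 at 0.998 CPM. The mean over all libraries can be carried by one condition. In 27 members the shGFP mean was under 1 CPM and the knockdown mean at least 1 CPM, and in 12 it was the other way round. All 249 passed the filter on low counts.

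About as many lincRNAs rose as fell. With shCHAF1B-1, 62 of 249 rose (24.9%) and 55 fell (22.1%), while among all 16235 genes tested 27.9% rose and 25.2% fell. With shCHAF1B-2, 52 rose (20.9%) and 64 fell (25.7%), beside 26.7% and 24.6% of all genes. Under both hairpins, passing in each test with the same sign, 50 rose and 50 fell (20.1% each), where 23.8% of all genes rose and 20.8% fell. The shares of lincRNAs were thus near or below those of all genes. They were below those of tested genes averaging at least 1 CPM, of which 27.1% rose and 24.1% fell under both hairpins. The median log2 fold change was 0.00 and -0.01 for lincRNAs with the first and the second hairpin and -0.00 and -0.01 for all genes. Of the 210 members with at least 1 CPM in both conditions, 33 rose and 43 fell under both hairpins. Of the 27 that reached the threshold through the knockdown libraries 17 rose, and of the 12 that reached it through the shGFP libraries 7 fell, as their selection favours. Without shCHAF1B-1 replicate 3, 47 rose and 48 fell under both hairpins, and without shCHAF1B-2 replicate 3, 56 rose and 46 fell.

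At 2-fold or more under both hairpins, 24 of 249 lincRNAs rose and 5 fell, where 5.06% of all genes rose and 1.50% fell. Of 13240 tested genes averaging at least 1 CPM, 586 rose and 151 fell that far. The threshold on the mean favours large rises, because 6 of the 9 libraries were knockdown libraries. Of the 24, 16 had a shGFP mean under 1 CPM, and 8 had at least 1 CPM in both conditions. Of the 5 that fell, 2 had a knockdown mean under 1 CPM, and 3 had at least 1 CPM in both conditions. With shCHAF1B-1, 31 lincRNAs rose at least 2-fold (12.4%, against 6.34% of all genes) and 7 fell that far (2.81%, against 2.11%). With shCHAF1B-2, 25 rose at least 2-fold (10.0%, against 5.53%) and 10 fell (4.02%, against 2.33%). Among tested genes averaging at least 1 CPM, 5.33% rose and 1.49% fell that far with shCHAF1B-1. With shCHAF1B-2 these shares were 4.68% and 1.53%. Low counts widened the errors: the median SE of the shCHAF1B-1 log2 fold change was 0.175 for lincRNAs and 0.0868 for all genes, and among lincRNAs it was 0.221 at 1 to 2 CPM and 0.0810 above 50 CPM. A change that failed the test at these levels may have been too small for this depth.

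**Figure D1:**
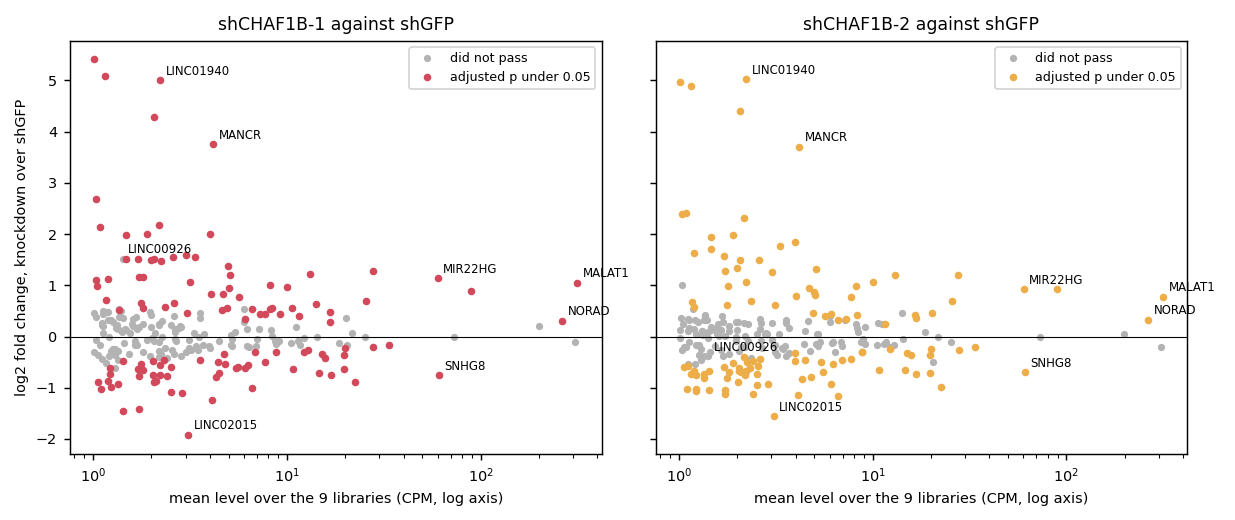
Log2 fold change over shGFP (vertical) against the mean level in CPM over the 9 libraries (horizontal, log axis) for each of the 249 lincRNAs, with shCHAF1B-1 on the left and shCHAF1B-2 on the right; coloured points had an adjusted p under 0.05. The largest rises, up to 5.41 and 5.02, lie at the low end of the level axis, while MALAT1, NORAD and MIR22HG lie among the most abundant and rose by less.

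The largest rises were of transcripts with only a handful of reads in control cells. The threshold on the mean admits such transcripts only if they are high in knockdown libraries. Their place at the top is therefore partly set by that selection. LINC01940 (ENSG00000227744.4, GRCh38 chr2:238919302-238926269, minus strand, 10 exon blocks) stood at 3.82, 3.01 and 2.95 CPM under shCHAF1B-1, 2.82, 2.67 and 4.41 CPM under shCHAF1B-2, and 0.077, 0.0716 and 0.14 CPM under shGFP. Every knockdown library was above every shGFP library, as the choice of the leading lincRNAs required. The 3 shGFP libraries held 8 counts together and the 6 knockdown libraries 504, which is a ratio of levels of 33.6 with a 95% counting interval of 16.9 to 78.2. The fitted log2 fold change was 5.00 (SE 0.343, adjusted p = 4.6e-08) and 5.02 (SE 0.344, adjusted p = 5.1e-08). The nearest protein-coding gene, the transcription factor TWIST2 on the other strand 8759 bases away, did not pass (log2 fold change 0.00 and -0.16, adjusted p = 0.98 and 0.37).

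AC112721.2 (ENSG00000222032.1, chr2:237428920-237434822, minus strand) had 1.54, 1.95 and 1.69 CPM under shCHAF1B-1, 1.45, 1.33 and 1.05 CPM under shCHAF1B-2, and 0, 0.0358 and 0.0701 CPM under shGFP. The shGFP libraries held 3 counts in all, against 236 in the knockdown libraries, which gave a ratio of 41.9 with a 95% counting interval of 14.2 to 205. Its neighbour COL6A3, a chain of collagen VI that is transcribed from the same strand 14545 bases away, stood at 50.2, 51.8 and 47.7 CPM under shCHAF1B-1, 44.8, 51.9 and 48.0 CPM under shCHAF1B-2 and 1.12, 1.25 and 1.16 CPM under shGFP. COL6A3 rose by 5.4 and 5.35 on the log2 scale (adjusted p = 1.0e-13 and 1.2e-13), so both rose. The size for the lincRNA is uncertain: its fitted log2 fold change of 5.41 and 4.97 was 6.22 and 5.78 without shGFP replicate 3 and 4.91 and 4.47 without shGFP replicate 1.

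LINC01647 (chr1:11609531-11613355, plus strand) had 1.87, 1.31 and 2.28 CPM under shCHAF1B-1, 1.58, 1.65 and 1.51 CPM under shCHAF1B-2, and 0, 0.0358 and 0.105 CPM under shGFP. With 4 shGFP counts, its ratio was 34.8, with a 95% counting interval of 13.4 to 129, and the fitted log2 fold change of 5.09 and 4.90 was 6.28 and 6.09 without shGFP replicate 3. Its nearest protein-coding gene, the ubiquitin-ligase adaptor FBXO2 at 23663 bases, rose by 0.88 and 0.75. LINC00973 (chr3:98981058-98983096, plus strand) had 3.33, 2.98 and 2.4 CPM under shCHAF1B-1, 3.2, 3.33 and 2.94 CPM under shCHAF1B-2, and 0.115, 0.143 and 0.175 CPM under shGFP. The log2 fold change was 4.28 (SE 0.249, adjusted p = 9.4e-09) and 4.40 (SE 0.248, adjusted p = 7.4e-09). The membrane receptor gene DCBLD2, 79369 bases away on the other strand, rose as well, to 1119, 1155 and 1102 CPM and 1113, 1097 and 1137 CPM, against 205, 202 and 210 CPM under shGFP (log2 fold change 2.45 and 2.44).

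MANCR (ENSG00000231298.6, chr10:4650185-4678154, minus strand, 6 exon blocks) is a lincRNA described in cell division and in aggressive breast cancer cells. It had 5.89, 6.63 and 5.82 CPM under shCHAF1B-1, 4.82, 6.43 and 6.55 CPM under shCHAF1B-2, and 0.5, 0.429 and 0.421 CPM under shGFP. The lowest knockdown library was several times the highest shGFP library, where the choice of this lincRNA required only that it be higher. The log2 fold change was 3.76 (SE 0.183, adjusted p = 1.7e-09) and 3.71 (SE 0.185, adjusted p = 2.1e-09), with the smallest adjusted p of the 24 lincRNAs named for their size of change. Its exons overlap LINC00705 on the other strand, and its nearest protein-coding gene, AKR1E2 at 108475 bases, was not among the genes tested.

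The other 7 of the 12 leading rises had smaller changes. All 24 leading rises and falls were picked from lincRNAs whose knockdown and shGFP libraries did not overlap, so that their separation is no finding. AL645608.8 rose by 2.68 and 2.40, AC010343.3 by 2.18 and 2.31, and AC006262.2 by 2.13 and 2.41 on the log2 scale. AC010754.1 rose by 2.01 and 1.99, AC105277.1 by 1.99 and 1.95, MIR210HG by 2.01 and 1.85, and AF127577.4 by 1.56 and 1.76. AC010754.1 (chr18:23957754-23982556, minus strand) lies 1532 bases from LAMA3, a laminin chain of epithelial basement membranes, on the other strand. It stood at 2.68, 2.31 and 2.71 CPM under shCHAF1B-1, 2.41, 2.71 and 2.44 CPM under shCHAF1B-2 and 0.577, 0.716 and 0.596 CPM under shGFP, while LAMA3 ran from 1952 to 2118 CPM in knockdown libraries and from 681 to 698 CPM in shGFP libraries (log2 fold change 1.59 and 1.56). AF127577.4 shares exons with NRIP1, a nuclear receptor corepressor, on the same strand, and NRIP1 rose by 0.84 and 0.85, so some of its reads may belong to NRIP1.

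**Figure D2:**
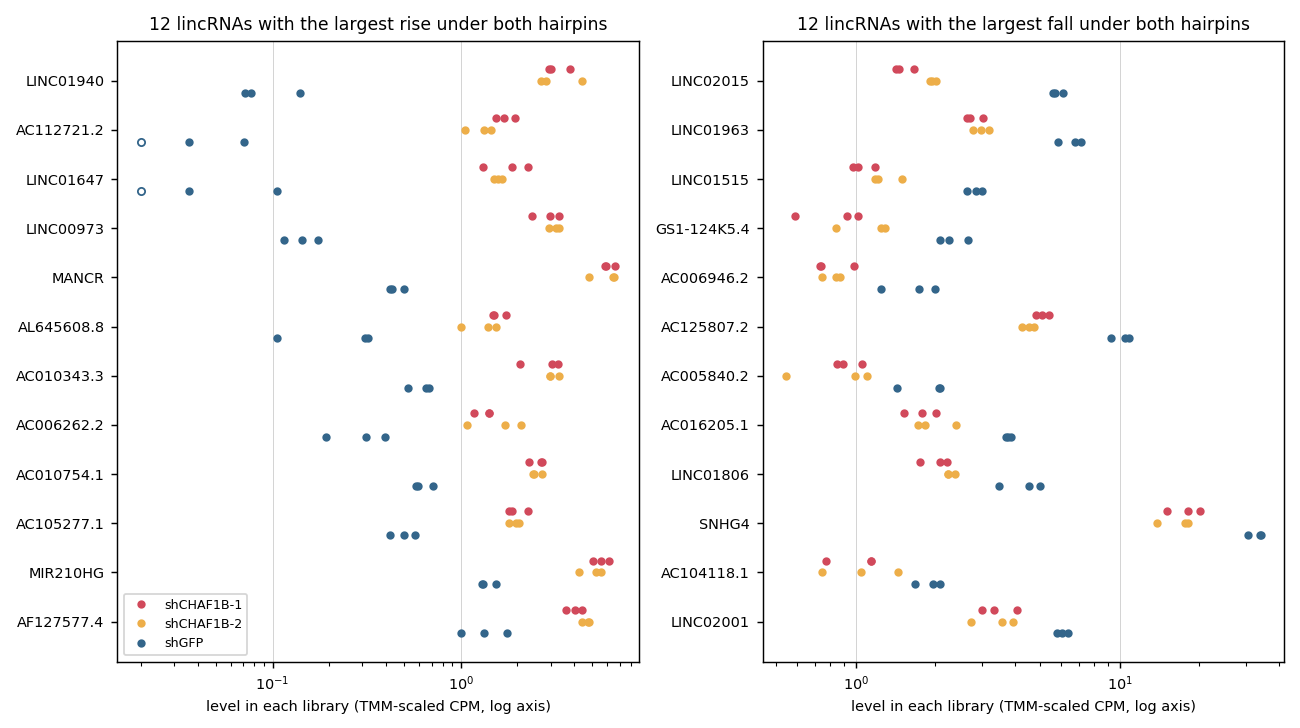
Level of each of the 12 leading risers (left) and 12 leading fallers (right) in TMM-scaled CPM on a log axis, 1 point per library, with shCHAF1B-1, shCHAF1B-2 and shGFP from top to bottom within each gene; open points at the left edge are libraries with 0 counts. The genes were picked for knockdown and shGFP points that lie apart and ranked by the smaller change; the smaller changes reach 5.00 (LINC01940) among the risers and -1.56 (LINC02015) among the fallers.

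The leading falls were shallower, and the transcripts remained measurable in the knockdown libraries. Because most libraries were knockdown libraries, the threshold on the mean admits silenced transcripts less readily than switched-on ones. This contrast with the rises is therefore no finding. LINC02015 (ENSG00000231574.5, chr3:177816865-177899224, plus strand, 4 exon blocks) had 1.46, 1.67 and 1.42 CPM under shCHAF1B-1, 1.95, 1.92 and 2.02 CPM under shCHAF1B-2, and 6.08, 5.69 and 5.61 CPM under shGFP. The groups did not overlap, as the choice of this lincRNA required. The log2 fold change was -1.92 (SE 0.126, adjusted p = 2.9e-08) and -1.56 (SE 0.123, adjusted p = 2e-07). LINC01963 (chr2:216217045-216220192, plus strand, a single exon block) had 2.64, 2.72 and 3.03 CPM under shCHAF1B-1, 2.78, 3.21 and 2.98 CPM under shCHAF1B-2, and 6.77, 5.83 and 7.15 CPM under shGFP (log2 fold change -1.23 and -1.14, adjusted p = 1.6e-06 and 4e-06). It lies 10742 bases from XRCC5, the Ku80 subunit of the machinery that joins broken DNA ends, whose own change was -0.21 and -0.16.

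AC125807.2 (chr12:3041437-3044950, plus strand) lies 764 bases from TEAD4, a transcription factor through which YAP and TAZ act. It had 5.4, 5.06 and 4.84 CPM under shCHAF1B-1, 4.28, 4.55 and 4.75 CPM under shCHAF1B-2, and 9.31, 10.5 and 10.8 CPM under shGFP. Its log2 fold change was -1.0 (SE 0.0955, adjusted p = 1.2e-06) and -1.17 (SE 0.0979, adjusted p = 3.5e-07), and TEAD4, on the same strand, fell by 0.65 and 0.78. The other 9 leading falls ran from LINC01515 (-1.41 and -1.12) and GS1-124K5.4 (-1.46 and -1.05) through AC006946.2 (-1.02 and -1.02), AC005840.2 (-0.98 and -1.07), AC016205.1 (-1.08 and -0.94) and LINC01806 (-1.10 and -0.93) to SNHG4 (-0.89 and -0.99), AC104118.1 (-0.92 and -0.81) and LINC02001 (-0.80 and -0.83). The neighbours of 3 of them moved the other way: TPST1, a tyrosine sulfotransferase 73163 bases from GS1-124K5.4, rose by 0.70 and 0.50, LTBR, the lymphotoxin beta receptor 2334 bases from AC005840.2, by 0.42 and 0.27, and TANK, a regulator of innate immune signalling 8518 bases from LINC01806, by 0.41 and 0.43.

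Promoter windows from RefSeq (GRCh38.p14, 250 bases before to 50 after the start, 300 in all) were matched by name for 94 of the 249, and in 66 the RefSeq start lay within 250 bases of the GENCODE start. They are shown for the 2 spliced leaders at the top of the risers and fallers, LINC01940 and LINC02015, and for 2 risers that hold the motif TGANTCA, which is in capitals. The motif takes in TGACTCA and TGAGTCA, the site to which the JUN and FOS transcription factors bind, but also TGAATCA and TGATTCA. It reads the same on both strands.
LINC01940, chr2:238926220-238926519, minus strand: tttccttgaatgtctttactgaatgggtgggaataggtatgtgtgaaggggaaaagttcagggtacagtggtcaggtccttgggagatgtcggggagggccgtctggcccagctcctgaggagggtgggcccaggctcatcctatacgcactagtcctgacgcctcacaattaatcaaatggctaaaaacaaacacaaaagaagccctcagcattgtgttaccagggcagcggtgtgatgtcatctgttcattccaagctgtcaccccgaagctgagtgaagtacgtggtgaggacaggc
MANCR, chr10:4678021-4678320, minus strand: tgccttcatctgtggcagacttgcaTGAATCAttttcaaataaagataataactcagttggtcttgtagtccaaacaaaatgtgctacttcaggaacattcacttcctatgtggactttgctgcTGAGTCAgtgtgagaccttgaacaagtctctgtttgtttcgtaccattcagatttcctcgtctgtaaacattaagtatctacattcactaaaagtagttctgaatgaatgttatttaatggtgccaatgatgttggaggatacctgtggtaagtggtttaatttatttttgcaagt
MYOSLID, chr2:207239561-207239860, plus strand: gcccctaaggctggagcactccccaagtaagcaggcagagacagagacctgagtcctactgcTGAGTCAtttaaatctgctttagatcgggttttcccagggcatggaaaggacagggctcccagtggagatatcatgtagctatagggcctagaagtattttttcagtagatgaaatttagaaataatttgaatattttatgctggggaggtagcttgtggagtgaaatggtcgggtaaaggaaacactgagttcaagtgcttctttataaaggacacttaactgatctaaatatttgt
LINC02015, chr3:177816615-177816914, plus strand: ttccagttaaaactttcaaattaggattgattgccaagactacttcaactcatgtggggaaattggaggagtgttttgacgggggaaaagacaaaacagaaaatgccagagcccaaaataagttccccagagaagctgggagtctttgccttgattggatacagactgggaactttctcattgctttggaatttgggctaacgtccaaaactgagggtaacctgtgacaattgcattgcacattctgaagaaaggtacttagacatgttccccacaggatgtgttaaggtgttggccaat

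The window of MANCR held the motif 2 times, beginning 225 (TGAATCA) and 126 (TGAGTCA) bases before the RefSeq start. That of MYOSLID held it 1 time (TGAGTCA), 188 bases before the start. The counts that follow take every form of the motif. Among windows whose start lay close to GENCODE's, the motif was in 3 of 13 lincRNAs that rose under both hairpins, in 0 of 15 that fell and in 4 of 38 of the remainder. Over all 94 matched windows it was in 6 of 19, 0 of 21 and 6 of 54. Of all 27305 promoters in the RefSeq table, 7.76% held it. A match is a run of letters and not a shown binding site. The windows of risers and fallers had medians of 19 and 19 CG dinucleotides, and their median GC content was 61.0% and 57.0%.

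Among the most abundant lincRNAs per length, 8 of 10 passed the test under both hairpins, as did 44.7% of all genes tested. In order of RPKM over the 9 libraries these were SNHG8 (65.9), NORAD (49.5), MALAT1 (35.8), SNHG19 (31.7), MYOSLID (23.0), MIR22HG (20.1), AL365356.5 (14.3), NEAT1 (13.5), SFTA1P (12.7) and LINC00941 (12.2). SNHG8 and SNHG19 fell, NORAD, MALAT1, MYOSLID, MIR22HG, AL365356.5 and LINC00941 rose, and NEAT1 and SFTA1P did not pass under either hairpin.

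MYOSLID (ENSG00000229647.1, chr2:207239650-207245887, plus strand) is known from vascular smooth muscle, where serum response factor and its coactivator myocardin drive it. It stood at 35.5, 34.4 and 35.8 CPM under shCHAF1B-1, 34.9, 30.7 and 34.3 CPM under shCHAF1B-2, and 13.9, 13.5 and 16.1 CPM under shGFP. All knockdown libraries lay close together and above all shGFP libraries (log2 fold change 1.28, SE 0.0747, adjusted p = 9.5e-09, and 1.20, SE 0.0753, adjusted p = 2.1e-08). KLF7, a Krüppel-like transcription factor 72383 bases away on the other strand, rose by 1.11 and 1.00. AL365356.5, which has only a clone-type name, rose by 0.96 and 1.06, and its neighbour ASB13 fell by 0.32 and 0.38. LINC00941, which starts 216 bases from CAPRIN2 on the other strand and has been studied in carcinomas, rose by 0.47 and 0.42, and CAPRIN2 by 0.92 and 0.83.

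Of the 4 lincRNAs listed for nuclear bodies or chromatin, 3 rose and 0 fell in the test of the mean of both hairpins, and NEAT1 did not pass. In that test 29.2% of all genes rose and 27.7% fell. The list counts NORAD, although it is cytoplasmic. It leaves out XIST, a member 93832 bases from FTX that did neither under both hairpins (log2 fold change 0.21 and 0.04). With shCHAF1B-1 alone 2 rose, FTX not passing. NORAD (chr20:36045622-36050960, minus strand), a cytoplasmic transcript induced by DNA damage that binds Pumilio proteins, had 293, 275 and 276 CPM under shCHAF1B-1, 288, 282 and 285 CPM under shCHAF1B-2, and 230, 228 and 221 CPM under shGFP. The change was small but the libraries were tight, and the groups did not overlap (log2 fold change 0.31, SE 0.0427, adjusted p = 3.3e-05, and 0.33, SE 0.0427, adjusted p = 2.1e-05).

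MALAT1 (ENSG00000251562.8, chr11:65497688-65506516, plus strand, a single exon block), a nuclear RNA found in splicing speckles, had 334, 444 and 454 CPM under shCHAF1B-1, 366, 424 and 229 CPM under shCHAF1B-2, and 225, 140 and 230 CPM under shGFP. Replicate 3 of shCHAF1B-2 lay within the shGFP range, so the groups overlapped. The log2 fold change was 1.05 (SE 0.21, adjusted p = 0.00082) and 0.78 (SE 0.21, adjusted p = 0.007). Leaving out single libraries moved the shCHAF1B-2 value between 0.58 and 1.00, and it passed each time. NEAT1 (chr11:65422774-65445540, plus strand), the scaffold of paraspeckles encoded 52148 bases away, had 258, 334 and 336 CPM under shCHAF1B-1, 317, 357 and 181 CPM under shCHAF1B-2, and 368, 248 and 376 CPM under shGFP (log2 fold change -0.10 and -0.21, adjusted p = 0.72 and 0.42).

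The same libraries were low for both transcripts, and the ratio of MALAT1 to NEAT1 within a library varied much less. That ratio, computed after the levels had been seen, was 1.30, 1.33 and 1.35 with shCHAF1B-1, 1.15, 1.19 and 1.26 with shCHAF1B-2, and 0.61, 0.56 and 0.61 with shGFP. No knockdown library came near a shGFP library. A ratio shows that the pair changed unequally and not which of them changed. FTX, a noncoding gene of the X-inactivation region, followed the same libraries, with 18.6, 22.2 and 23.4 CPM for shCHAF1B-1, 25.3, 25.5 and 17.3 CPM for shCHAF1B-2 and 17.5, 12.1 and 20.1 CPM for shGFP. It passed with shCHAF1B-2 alone (log2 fold change 0.46, adjusted p = 0.04, and 0.37, adjusted p = 0.085, with shCHAF1B-1), and the shCHAF1B-2 call was lost in 7 of 15 alternatives, down to 0.27 without shGFP replicate 2.

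**Figure D3:**
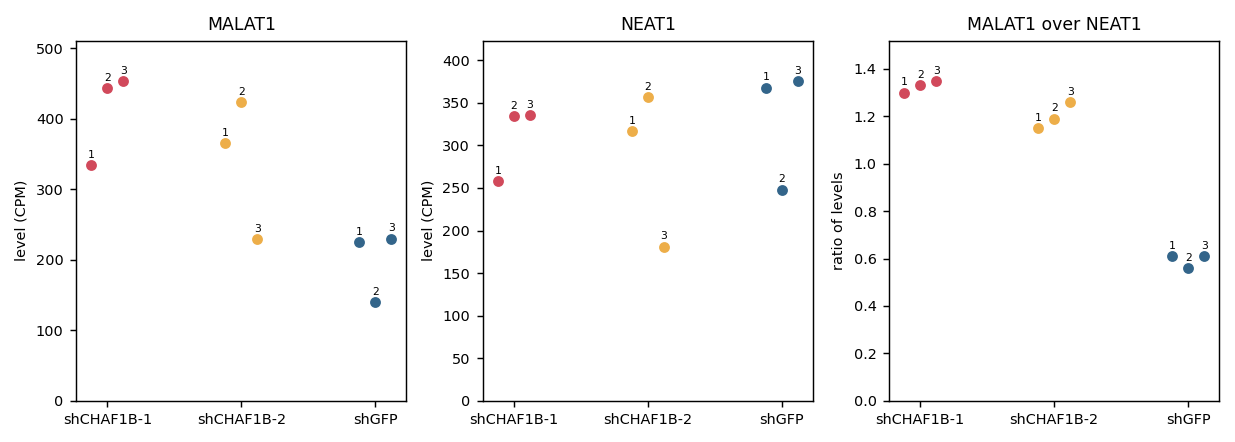
Level of MALAT1 (left) and NEAT1 (middle) in CPM and the ratio of MALAT1 to NEAT1 (right) in each library, with replicate numbers beside the points and axes from 0. The levels spread and overlap within and between groups, whereas the ratio is 1.15 to 1.35 in the 6 knockdown libraries and 0.56 to 0.61 in the 3 shGFP libraries.

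Small nucleolar RNAs guide chemical modification of ribosomal RNA and are often carried by noncoding host genes. Of the 6 listed lincRNA hosts, 5 fell under both hairpins (SNHG8, SNHG4, EPB41L4A-AS1, SNHG19 and SNHG15), 0 rose and SNHG9 did not pass, where 20.8% of all genes fell and 23.8% rose. Their median log2 fold change was -0.63 and -0.68, beside -0.00 and -0.01 for all genes. By annotation 8 members contain a snoRNA gene. The further ones are LINC02001, one of the leading falls, which contains SNORD7, and LINC01932, named after its values had been seen, which passed with neither hairpin. SNHG8 (ENSG00000269893.6, chr4:118278709-118279823, plus strand), host of SNORA24, had 50.9, 49.9 and 46.4 CPM under shCHAF1B-1, 47.8, 49.8 and 55.2 CPM under shCHAF1B-2, and 80.0, 90.2 and 77.5 CPM under shGFP. All knockdown libraries were below all shGFP libraries (log2 fold change -0.75, SE 0.0688, adjusted p = 8.1e-07, and -0.70, SE 0.069, adjusted p = 1.8e-06). SNHG4, host of SNORA74A, had 15.1, 18.1 and 20.1 CPM under shCHAF1B-1, 17.7, 18.1 and 13.8 CPM under shCHAF1B-2, and 34.2, 30.5 and 34.0 CPM under shGFP, and it shares exons with MATR3 on the same strand and SIL1 on the other. EPB41L4A-AS1, host of SNORA13, fell by 0.63 and 0.72, and EPB41L4A, which it overlaps on the other strand, by 1.13 and 1.00.

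SNHG19, host of SNORD60, stood at 10.2, 9.80 and 7.51 CPM under shCHAF1B-1, 9.43, 9.13 and 8.53 CPM under shCHAF1B-2, and 14.7, 15.7 and 12.3 CPM under shGFP (log2 fold change -0.63 and -0.66, adjusted p = 0.00049 and 0.00041). SNHG15, host of SNORA9, fell by 0.21 and 0.27, and the shCHAF1B-1 call was lost in 4 of 15 alternatives. SNHG9, host of SNORA78, had -0.16 and -0.33 and did not pass (adjusted p = 0.46 and 0.14). Most other snoRNA host genes of the list are not typed as lincRNA in this annotation, and the mature snoRNAs lack a poly(A) tail and were not measured.

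Of the 13 listed hosts of microRNAs, 6 rose, 1 fell and 6 did not pass in the test of the mean of both hairpins, where 29.2% of all genes rose and 27.7% fell. By annotation 20 members contain a microRNA gene, and of these 6 rose, 2 fell and 12 did neither under both hairpins. Among all genes, 23.8% rose and 20.8% fell under both. Those that fell were PVT1 and AC016205.1, one of the leading falls, which contains miR-5583 and miR-924 and is outside the list. Under each hairpin separately, MIR22HG, MIR210HG, MIR222HG and MIR503HG rose and PVT1 fell. A selection of the mature microRNAs of hosts that rose in at least 1 test is shown 5′ to 3′ from RefSeq (GRCh38.p14) with the seed, bases 2 to 8, in capitals, because the seed decides which messenger RNAs a microRNA can pair with; those of AC016831.6 and AC048341.1, hosts outside the list that were picked after their values had been seen, are added for the seeds they share. The libraries measured the host transcripts, not the microRNAs.
miR-22-3p, chr17:1713914-1713935, minus strand, in MIR22HG: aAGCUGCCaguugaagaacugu
miR-210-3p, chr11:568112-568133, minus strand, in MIR210HG: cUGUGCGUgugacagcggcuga
miR-221-3p, chrX:45746180-45746202, minus strand, in MIR222HG: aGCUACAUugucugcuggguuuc
miR-222-3p, chrX:45747036-45747056, minus strand, in MIR222HG: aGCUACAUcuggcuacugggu
miR-503-5p, chrX:134546371-134546393, minus strand, in MIR503HG: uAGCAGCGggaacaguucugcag
miR-29a-3p, chr7:130876748-130876769, minus strand, in AC016831.6: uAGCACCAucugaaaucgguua
miR-29b-3p, chr7:130877467-130877489, minus strand, in AC016831.6: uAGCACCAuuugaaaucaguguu
miR-29c-3p, chr1:207801865-207801886, minus strand, in MIR29B2CHG: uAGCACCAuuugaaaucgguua
let-7i-5p, chr12:62603691-62603712, plus strand, in AC048341.1: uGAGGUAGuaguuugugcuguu
let-7a-5p, chr22:46112752-46112773, plus strand, in MIRLET7BHG: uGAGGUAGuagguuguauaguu
let-7b-5p, chr22:46113691-46113712, plus strand, in MIRLET7BHG: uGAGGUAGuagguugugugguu

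Among these, miR-221-3p and miR-222-3p share the seed GCUACAU within 1 host, while the AGCACCA seed of the miR-29 family and the GAGGUAG seed of the let-7 family each come from 2 hosts on different chromosomes. The seed GAGGUAG is also that of miR-4458, not shown, whose listed host MIR4458HG passed with neither hairpin (log2 fold change 0.01 and 0.09). MIR22HG (ENSG00000186594.14, chr17:1711493-1717174, minus strand), the precursor of miR-22, had 76.5, 81.1 and 76.7 CPM under shCHAF1B-1, 70.2, 71.3 and 58.8 CPM under shCHAF1B-2, and 33.7, 33.5 and 38.9 CPM under shGFP. It rose by 1.14 (SE 0.0776, adjusted p = 4.2e-08) and 0.92 (SE 0.0781, adjusted p = 4.3e-07), while WDR81, the protein-coding gene whose body it overlaps on the other strand, did not pass (-0.02 and -0.08). MIR222HG (chrX:45745211-45770274, minus strand), precursor of miR-221 and miR-222, which repress the cell-cycle inhibitor p27, had 12.4, 20.3 and 15.9 CPM under shCHAF1B-1, 18.2, 17.0 and 13.1 CPM under shCHAF1B-2, and 7.0, 5.69 and 8.27 CPM under shGFP. The knockdown libraries varied among themselves but none reached the shGFP range (log2 fold change 1.22, SE 0.18, adjusted p = 6.6e-05, and 1.20, SE 0.181, adjusted p = 8.6e-05).

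MIR210HG (chr11:565660-568457, minus strand), precursor of the hypoxia-induced miR-210, had 6.13, 5.57 and 5.04 CPM under shCHAF1B-1, 5.57, 5.21 and 4.24 CPM under shCHAF1B-2, and 1.31, 1.29 and 1.54 CPM under shGFP (adjusted p = 1.1e-07 and 3.1e-07). RASSF7, 1639 bases away, did not pass (0.12 and -0.03). MIR503HG (chrX:134543337-134546632, minus strand) stood at 2.84, 3.39 and 3.23 CPM under shCHAF1B-1, 2.87, 2.51 and 1.76 CPM under shCHAF1B-2, and 1.39, 0.859 and 1.19 CPM under shGFP (log2 fold change 1.47 and 1.06, adjusted p = 5.4e-05 and 0.0011). These 4 hosts were apart from shGFP in every library.

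The miR-29 and let-7 hosts were less even. AC016831.6 (chr7:130791264-131110161, minus strand), which contains miR-29a and miR-29b and shares exons with LINC-PINT, rose by 1.52 and 1.58 (adjusted p = 0.00011 and 8.6e-05). MIR29B2CHG rose by 0.63 with shCHAF1B-1 (adjusted p = 0.032, a call lost in 6 of 15 alternatives) and had 0.45 with shCHAF1B-2 (adjusted p = 0.13). AC048341.1, which contains let-7i, rose by 0.83 and 0.79 (adjusted p = 0.0041 and 0.0064). MIRLET7BHG rose by 0.54 with shCHAF1B-1 (adjusted p = 0.0027) and had 0.25 with shCHAF1B-2 (adjusted p = 0.12).

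PVT1 (chr8:127794533-128101253, plus strand), a multi-exon lincRNA near MYC, had 17.0, 19.3 and 18.0 CPM under shCHAF1B-1, 18.5, 17.8 and 17.7 CPM under shCHAF1B-2, and 22.6, 22.7 and 24.5 CPM under shGFP (log2 fold change -0.36 and -0.37, adjusted p = 0.00052 and 0.00044). MYC, 53099 bases away on the same strand, fell to between 412 and 428 CPM in knockdown libraries, against 567 to 612 CPM in shGFP libraries (log2 fold change -0.48 and -0.47). CYTOR, MIR4435-2HG, MIR4458HG, MIR193BHG, MIR646HG and MIR34AHG did not pass under either hairpin. Neither did MIR200CHG, host of the epithelial microRNAs miR-200c and miR-141, which is outside the list and was picked after its values had been seen (log2 fold change -0.09 and -0.22, adjusted p = 0.73 and 0.39).

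**Figure D4:**
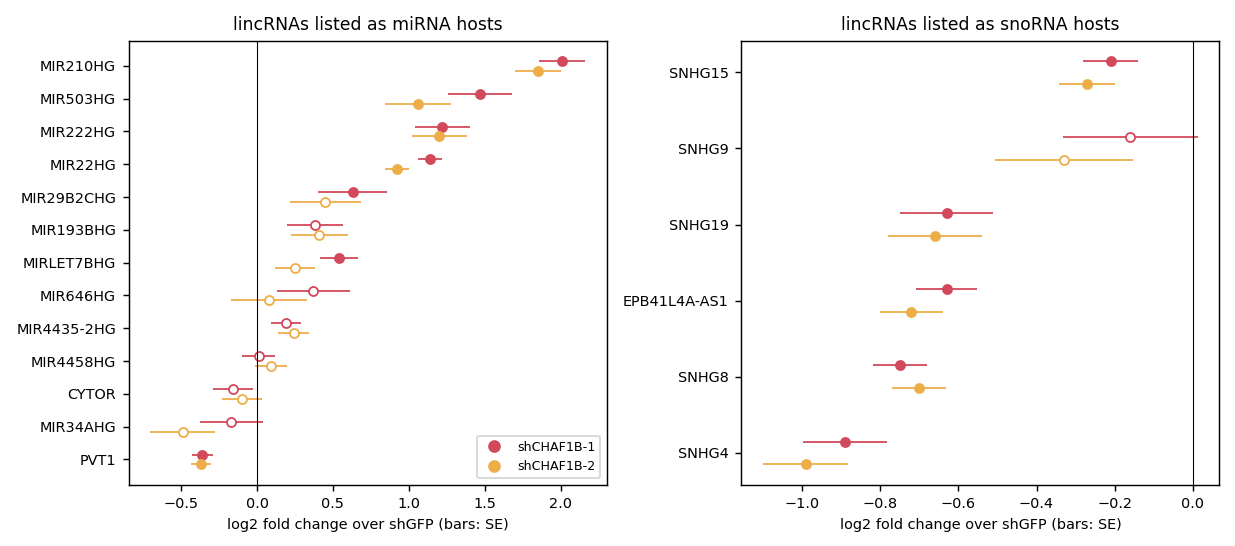
Log2 fold change over shGFP with its SE (bars) for the 13 listed lincRNA hosts of microRNAs (left) and the 6 listed hosts of snoRNAs (right), shCHAF1B-1 above shCHAF1B-2; filled points had an adjusted p under 0.05. The microRNA hosts range from MIR210HG at 2.01 and 1.85 to PVT1 at -0.36 and -0.37, and all 6 snoRNA hosts lie below 0, with SNHG9 not passing.

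Of 5 listed lincRNAs of the p53 pathway, 1 rose (NORAD), 1 fell (PVT1) and 3 did not pass in the test of the mean of both hairpins, with a median of -0.21. In that test 29.2% of all genes rose and 27.7% fell. MIR34AHG, the precursor of the p53 target miR-34a, had 19.2, 20.8 and 22.8 CPM under shCHAF1B-1, 19.5, 20.5 and 10.1 CPM under shCHAF1B-2, and 26.4, 17.2 and 27.0 CPM under shGFP, and did not pass (log2 fold change -0.17 and -0.49, adjusted p = 0.52 and 0.07). LNCTAM34A, which overlaps it on the other strand and was picked after its values had been seen, fell by 0.61 and 1.03, the first of these calls being lost in 3 of 15 alternatives. PICART1, named for its induction by p53, also outside the list and also picked after its values had been seen, rose by 1.59 and 1.26. TP53TG1 fell by 0.31 with shCHAF1B-1 (adjusted p = 0.024, lost in 4 of 15 alternatives) and had -0.11 with shCHAF1B-2 (adjusted p = 0.4).

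Of 7 listed lincRNAs studied in tumours and in the epithelial-mesenchymal transition, LINC00460, LINC00707, LINC00941 and MALAT1 rose under both hairpins. LINP1 fell under both, and CYTOR and MIR4435-2HG did not pass. Among all genes, 23.8% rose and 20.8% fell under both hairpins. LINC00707 (chr10:6779549-6879450, plus strand) was among the tightest, with 99.9, 105 and 108 CPM for shCHAF1B-1, 112, 101 and 106 CPM for shCHAF1B-2, and 53.6, 54.0 and 61.2 CPM for shGFP (log2 fold change 0.89, SE 0.0608, adjusted p = 4.3e-08, and 0.92, SE 0.061, adjusted p = 3.7e-08). LINP1, a scaffold of nonhomologous end joining that lies 39017 bases from LINC00707 on the same strand, had 8.20, 8.68 and 7.36 CPM under shCHAF1B-1, 7.39, 8.39 and 8.74 CPM under shCHAF1B-2, and 10.1, 11.4 and 8.66 CPM under shGFP. The highest shCHAF1B-1 and shCHAF1B-2 libraries slightly passed the lowest shGFP library, and the calls (log2 fold change -0.31 and -0.30, adjusted p = 0.031 and 0.041) were lost in 4 and 6 of 15 alternatives. LINC00707 and LINP1 share exons with the clone-named genes AL158210.2 and AL392086.3 on the same strand. LINC00460 rose by 0.70 with each hairpin (adjusted p = 5.4e-06 and 6.1e-06), and EFNB2, an ephrin ligand 105416 bases away, by 0.60 and 0.68.

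Of the 3 lincRNAs listed for inflammation and interferon, LINC02015 fell under both hairpins, as did 20.8% of all genes, and LNCAROD and NEAT1 did not pass. LINC01094, the single measured entry of the list for other lineages, passed with shCHAF1B-2 (log2 fold change 0.58, adjusted p = 0.037, lost in 7 of 15 alternatives) and had 0.47 with shCHAF1B-1 (adjusted p = 0.08).

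A tested nearest protein-coding gene was available for 208 of the 249. Across these pairs the log2 fold changes of lincRNA and neighbour, as the mean of both hairpins, had a Pearson correlation of 0.49 and a Spearman correlation of 0.29. The pairs share their libraries, and overlapping genes may share reads, so the values describe these libraries. For the 144 without any exon overlap, the correlations were 0.52 and 0.26. They were 0.45 and 0.38 for 49 neighbours whose gene bodies overlapped the lincRNA, 0.50 and 0.55 for 48 without such overlap at up to 1 kb, 0.30 and 0.21 for 46 at 1 to 10 kb, 0.65 and 0.28 for 50 at 10 to 100 kb, and -0.34 and -0.27 for 15 beyond that. AC112721.2 with COL6A3 and LINC00973 with DCBLD2 lie far from the other pairs.

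Of the lincRNAs that rose under both hairpins and had a tested neighbour, 22 had a neighbour that rose, 7 one that fell and 15 one that did neither. Of those that fell, 7 had a neighbour that rose, 13 one that fell and 22 one that did neither. Of those that did neither, 30 had a neighbour that rose, 20 one that fell and 72 one that did neither. Same and opposite directions both occurred, and more neighbours of risers rose than fell. Among all tested protein-coding genes of at least 1 CPM, 29.1% rose and 25.3% fell under both hairpins.

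A pair of lincRNAs beside integrin genes and 1 pair of opposite direction were picked after their values had been seen. ITGB1-DT (chr10:32958845-33082102, plus strand) is transcribed on the strand opposite the integrin beta 1 gene ITGB1, whose exons it overlaps. It had 3.33, 3.62 and 3.15 CPM under shCHAF1B-1, 3.49, 2.39 and 3.91 CPM under shCHAF1B-2, and between 1.04 and 1.23 CPM under shGFP (log2 fold change 1.55 and 1.5), and ITGB1 rose by 0.72 and 0.71. PICART1 (chr17:50050349-50055739, minus strand), a transcript named for its induction by p53, starts 229 bases from the integrin alpha 3 gene ITGA3 on the other strand. It had 4.47, 3.43 and 4.88 CPM under shCHAF1B-1, 3.66, 4.16 and 2.27 CPM under shCHAF1B-2, and 1.42, 1.5 and 1.30 CPM under shGFP (log2 fold change 1.59 and 1.26), and ITGA3 rose by 1.27 and 1.11. In the opposite sense, AC010343.3 rose by 2.18 and 2.31 while NPR3, a natriuretic peptide receptor 133915 bases away, fell by 0.51 and 0.51.

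**Figure D5:**
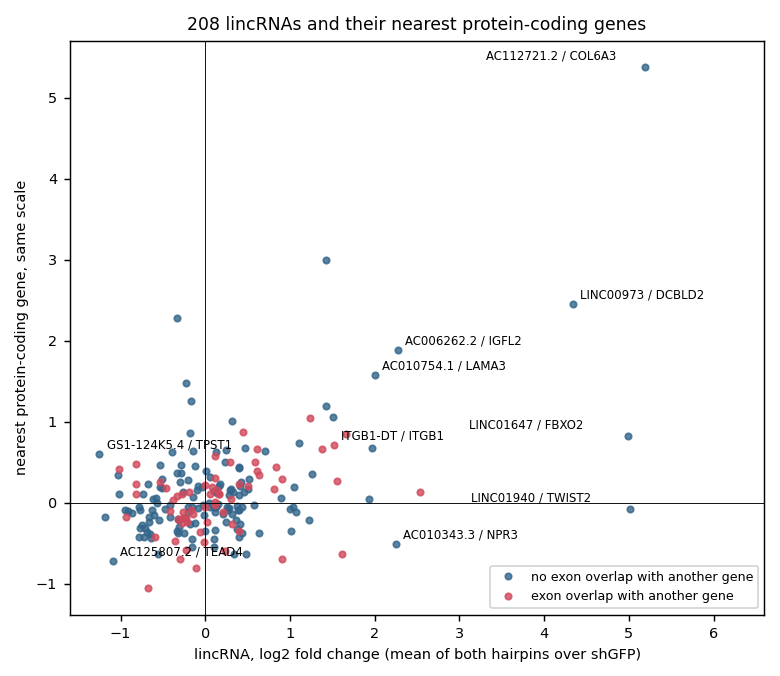
Log2 fold change of the nearest tested protein-coding gene (vertical) against that of the lincRNA (horizontal), both as the mean of the hairpins over shGFP, for 208 pairs; red points are lincRNAs whose exons overlap another gene. AC112721.2 and COL6A3 are at the upper right, LINC01940 and LINC01647 rose by about 5 beside neighbours that moved by less than 1, and most other pairs lie near the centre.

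LincRNAs close to each other did not always move together either. Within 100 kb, AL365203.2 and ITGB1-DT, PICART1 and AC002401.4, and AC006262.2 and IGFL2-AS1 each rose as pairs, and AC007342.4 and AC007342.5 both fell. LINP1 and LINC00707, in contrast, moved in opposite directions, and MALAT1 rose beside NEAT1, which did not pass.

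Exon lengths of the lincRNAs that rose and of those that fell were close, and overlaps with other genes were more frequent among the risers. The median exon length was 2.29 kb for the 50 that rose, 2.60 kb for the 50 that fell and 2.52 kb for the other 149. A single exon block was annotated for 22.0%, 30.0% and 29.5% of them, and a start within 1000 bases of an opposite-strand protein-coding start for 20.0%, 28.0% and 27.5%. Exon overlap with another gene was found for 40.0%, 24.0% and 32.9%, and a clone-type name for 52.0%, 32.0% and 49.0%. These shares are descriptions and were not tested.

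No lincRNA passed the test of the difference between the hairpins: 0 of 249 were called for shCHAF1B-2 minus shCHAF1B-1, and 0 of 16235 genes in all (0%), with 0.42 as the smallest adjusted p. At an unadjusted p under 0.05 there were 21 lincRNAs (8.43%) and 1800 genes (11.1%), and DESeq2 and limma-voom also called 0 lincRNAs. The 95% interval of the difference stayed within 1 log2 unit either way for 245 of the 249 and within 1.5-fold for 161. Of the 4 with wider intervals, LINC00926 (chr15:57300365-57307769, plus strand), a lincRNA of B lymphocytes, had 0.975, 0.833 and 6.18 CPM under shCHAF1B-1, 0.831, 0.706 and 0.546 CPM under shCHAF1B-2, and 1.04, 0.859 and 0.841 CPM under shGFP. Its high value is in the library with the raised B lymphocyte markers. Its shCHAF1B-1 log2 fold change was 1.52 (SE 0.611, adjusted p = 0.05) and -0.02 (adjusted p = 0.96) without that library. Leaving the library out took 7 members below the 1 CPM threshold, LINC00926 among them, and left 95 lincRNAs changed the same way by both hairpins, against 100 with it.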

How the data were processed

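Raw counts per gene, whole numbers, were deposited by the authors for 9 libraries. Per the labels' protocols, polyadenylated RNA was prepared with the TruSeq kit, version 2, which does not mark strand. STAR 2.5.3a, HTSeq 0.8.0, DESeq2 1.18.1 and the builds hg38 and mm10 are named, without roles, in the submitters' processing notes. Of 26186 identifiers, 26149 matched GENCODE release 29 without their version, and 239 of the 249 lincRNAs matched with it. Rows without a match received no gene type and could not be members. Genes were filtered with filterByExpr (minimum count 10, minimum total 15, proportion 0.7), scaled with TMM and tested in 1 edgeR 4.0.16 quasi-likelihood fit of all 9 libraries by group (R 4.3.3; prior degrees of freedom 7.2, biological coefficient of variation 6.24%), and p-values were adjusted over 16235 genes at a threshold of 0.05. Changes under both hairpins passed in each test with the same sign. RPKM used exon length. Counting intervals (95%) and floors (3 counts) leave out every error but counting, as reads carried no molecular identifiers.

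The lincRNAs and lists were chosen with earlier results of these data known. The text names the 12 rising and 12 falling lincRNAs ranked by the smaller of the hairpins' changes, with separated libraries, the 10 with the highest RPKM, up to 6 of each list by adjusted p, those beside the threshold, and nearest protein-coding genes. Alternatives were RLE and upper-quartile scaling, DESeq2 1.42.0, limma-voom (limma 3.58.1), no filter, a replicate block, thresholds of 0.5 and 2 CPM, no exon overlap, a 2-fold minimum and leaving out each library. The fit was tested on simulated data. Figures used matplotlib 3.10.9 in Python 3.11.15.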

Additional observations from a re-analysis of the deposited data

How the results depend on the processing

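A minimum of 2-fold left 38 lincRNAs changed by shCHAF1B-1 (31 rose, 7 fell), 35 by shCHAF1B-2 (25 rose, 10 fell) and 29 the same way by both (24 rose, 5 fell), since it asks for more than the test alone. Under the other scalings, tools, filter and omissions of a library, lincRNAs changed the same way by both hairpins numbered 85 (DESeq2, all 85 among the 100) to 102 (without shCHAF1B-2 replicate 3, of which 92 were shared). A threshold of 0.5 CPM gave 136, one of 2 CPM 72, and members without exon overlap 68 (30 rose, 38 fell). The replicate block gave 97, all of them among the 100. Same-numbered libraries deviated with correlations of -0.138 to 0.1, and differently numbered ones with -0.217 to 0.22. These values gave no sign that the numbers pair the samples, but they cannot exclude it. For 62 named lincRNAs with 124 hairpin values, 1788 of 1860 alternative values kept their direction and side of the threshold, 42 lost the call and 14 gained one. The other 16, for 10 values that passed neither before nor after, had the opposite sign and lay between -0.15 and 0.11. Of the 24 leading lincRNAs, AC104118.1 alone lost a call (shCHAF1B-2, -0.61 and adjusted p = 0.058 without shCHAF1B-2 replicate 1). Depth limits the members at 1 to 2 CPM most.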
